A study of Mus musculus with 24 samples.

Results

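Adrenergic and purinergic receptors let astrocytes respond to noradrenaline, to extracellular ATP and to adenosine. The 9 genes described here are Adra1a, Adra1b, Adra2a, Adrb1, Adora1, Adora2b, P2ry1, P2rx4 and P2rx7. They are the rows of the deposited tables that carry these symbols, 9 of 15709 genes listed in at least 1 table. All 9 were present in all 4 tables and all passed the filter on low values. The RNA was that of GFP-positive nuclei sorted from lumbar spinal dorsal horn (L3 to L5), on the side of a hindpaw incision. 1 library was made per mouse pup, with 24 libraries in 6 groups of 4.

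Every pup, controls included, had the genotype Aldh1l1-creERT2(+/-); R26-LSL-Sun1.GFP(+/-). In these mice a Cre recombinase under the Aldh1l1 promoter switches on a nuclear envelope protein fused to GFP, so the sorted nuclei are those in which Aldh1l1 drove the Cre. CreERT2 acts only with tamoxifen, whose timing is not given in the sources used here. Incised pups had a unilateral hindpaw incision on postnatal day 3 (P3), and naive pups had isoflurane anaesthesia without an incision. Tissue was taken at P4, P10 or P24, which is 1, 7 or 21 days after the incision. The study asked what an early injury changes in these nuclei and what changes in them as naive pups grow.

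Noradrenaline acts through G protein-coupled receptors of several classes. Alpha-1 receptors couple to Gq, which releases calcium from internal stores through phospholipase C and inositol trisphosphate receptors. Alpha-2 receptors couple to Gi, which lowers cyclic AMP, and beta receptors couple to Gs, which raises it. Extracellular ATP and ADP act on P2Y receptors, which are G protein-coupled, and ATP also opens P2X receptors, which are cation channels. Ectoenzymes at the cell surface break ATP down to adenosine, which acts on A1 receptors (Gi) and A2B receptors (Gs). In astrocytes, noradrenaline and ATP are known to raise intracellular calcium, and purinergic and adrenergic signals are known to act on pain processing in the dorsal horn.

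The deposited values are normalized expression from DESeq2, a signal per gene and library with no length correction, so levels are compared here between samples and never between genes. Column sums ran from 3880251 to 6512585 in the incision tables. These are sums of normalized values, and the sequencing depth is unknown. The lowest value above 0 in a library was 1.18 to 2.40, and the lowest receptor value of a library was 9.13 to 53.4 times it. Astrocyte markers were present in every library: in naive pups Aqp4, the water channel, stood at 9039 ± 2113 (mean ± SD, n = 4) at P4, 16073 ± 944 at P10 and 11085 ± 1906 at P24, and Aldh1l1 at 1600.2 ± 287, 1596 ± 373 and 959.7 ± 149. Slc1a3, another astrocyte marker, was 11626 ± 2413, 5000 ± 728 and 2866 ± 509 in the same pups. At an adjusted p under 0.05 in limma, 7 of the 12 astrocyte markers rose and 1 fell from P4 to P10. From P10 to P24, 2 rose and 6 fell, and 13.1% of all genes passed in each step. Markers of other cells were present too and also differed with age. The summed level of 12 oligodendrocyte markers was 1538 to 2806 in P4 pups, 12793 to 22366 in P10 pups and 82039 to 95299 in P24 pups, beside 61540.3 to 78300.3, 81887 to 109195 and 75419 to 110073 for 12 astrocyte markers. The sum of 12 neuron markers was 6174 to 8261, 5067 to 7223 and 10222 to 13515, and that of 11 microglia markers 1065 to 1295, 703 to 909 and 1018 to 1522. The sum of 9 oligodendrocyte precursor markers was 1313 to 1662, 1590.2 to 2711 and 4544 to 6059, and 7 of the 9 rose from P10 to P24. The sum of 7 mural markers was 612 to 909.8, 833 to 989 and 365 to 601. The part of these cells in the age results below was not tested.

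Library MB12 is titled P10 incised but is a naive P10 pup by its characteristics and the deposited sample sheet. MB16 is titled P24 naive but is an incised P10 pup by the same sources, and the authors' P10 table holds it. Both were placed by the characteristics and the sheet. The sex in title and sheet differed for 4 libraries (MB12, MB14, MB16 and MB19), and the sheet's was used in the fits. Library names such as male 1 keep the sex of the title. By the sheet, females and males were 2 and 2 in naive and 1 and 3 in incised pups at P4. They were 2 and 2 in both groups at P10. At P24 they were 3 and 1 in naive and 2 and 2 in incised pups. With the titles' groups, 2, 1 and 3 receptors were called for P10 against P4, P24 against P10 and P24 against P4 in naive pups, and 0 after incision at P10. Without MB12 and MB16 the counts were 2, 1, 3 and 0. In the naive age comparisons both alternatives only leave out MB12, since MB16 is not among those libraries. They are the same fit as leaving out MB12 alone. MB16 was not tried as a naive P24 pup. Calls are Benjamini-Hochberg adjusted p under 0.05 over all genes of a table, from limma on log2(value + 1) in a fit with terms for group and sex.

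All 9 genes are protein-coding. On GRCm38 the purine receptors are P2ry1 at chr3:61002795-61008982 (plus strand), P2rx4 at chr5:122707544-122729738 and P2rx7 at chr5:122643911-122691432. P2rx7 and P2rx4 are neighbours on the plus strand of chromosome 5, with 16.1 kb between them. The adenosine receptors are Adora1 at chr1:134199223-134235431 (minus strand) and Adora2b at chr11:62248984-62266453 (plus strand). The adrenergic receptors are Adra1a at chr14:66635251-66771168 (plus), Adra1b at chr11:43774606-43901210 (minus), Adra2a at chr19:54044151-54048982 (plus) and Adrb1 at chr19:56722199-56733113 (plus). P2ry1 spans 6.19 kb and Adra2a 4.83 kb, against 136 kb for Adra1a and 127 kb for Adra1b. The antisense gene Gm37035 shares 992 exonic bases with P2ry1, and Mybph on the opposite strand shares 1162 with Adora1. Whether counting used strand is not given in the sources used here, so reads from the shared bases cannot be assigned for certain. Mybph was listed at 38.7, 26.2 and 39 (means, n = 4) in naive pups at the 3 ages.

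Of the 4 receptors whose naive level differed between ages, P2ry1 and Adora1 have a RefSeq start with 250 bases before it that lie outside their own GENCODE exons. Of the 9 receptors, 8 have an entry in the RefSeq table used here, and that of Adra2a lies inside its GENCODE exon. The bases are shown because each stretch stands directly before a RefSeq start of a receptor that changed with age. For Adora1 this is the upstream of 2 RefSeq starts. The window of the other start overlaps a GENCODE exon of the gene and is not printed, and the values per gene do not tell the starts apart. Capitals mark the GC box, GGGCGG on either strand, which appears as CCGCCC where it lies on the other strand. The sequences are from RefSeq on GRCm38.p6, chr3:61002535-61002784 (plus strand) for P2ry1 and chr1:134235458-134235707 (minus strand) for Adora1, written 5′ to 3′.
P2ry1: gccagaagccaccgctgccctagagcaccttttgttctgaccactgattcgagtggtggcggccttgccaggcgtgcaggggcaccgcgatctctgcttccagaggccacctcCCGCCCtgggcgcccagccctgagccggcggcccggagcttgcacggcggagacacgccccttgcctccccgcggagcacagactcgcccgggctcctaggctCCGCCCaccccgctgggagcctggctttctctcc
Adora1: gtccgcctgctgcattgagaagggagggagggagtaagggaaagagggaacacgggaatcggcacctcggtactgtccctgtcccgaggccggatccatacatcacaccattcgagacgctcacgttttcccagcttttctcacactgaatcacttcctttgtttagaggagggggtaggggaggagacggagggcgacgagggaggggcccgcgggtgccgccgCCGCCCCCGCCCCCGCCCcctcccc
The P2ry1 window held 2 GC boxes and 20 CpG dinucleotides at 70.8% G + C. The Adora1 window held 3 GC boxes, in a cluster at the start site, and 19 CpG dinucleotides at 64.4% G + C. A GC box was present in 32.7% of 32851 RefSeq windows of the same length. Neither window held CCAAT or TATAAA on either strand, which were present in 33.8% and 12.4% of windows. These matches describe the letters only.

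In naive pups, 4 of the 9 receptors differed between ages. P2ry1, Adra2a, Adra1a and Adora1 were each higher at P10 or P24 than at P4, and none of the 9 was called lower at a later age. The call of Adora1 for any age difference was lost in 5 of 21 alternatives, which leaves 3 receptors. Its adjusted p in limma was 0.118 with no trend or robust settings, and 0.0595 to 0.109 without female 2 of P4 or without female 2, female 3 or male 2 of P24. Over all 14985 genes of the age table, 24.8% were called for any difference between ages, and the count among 9 chosen genes is given only as a description. From P4 to P10, 2 of 9 were called, both higher, against 13.1% of all genes. From P10 to P24, 1 of 9 was called, higher, against 13.1%. From P4 to P24, 3 of 9 were called, all higher, against 18.1%. The median log2 change of the 9 was 0.27, -0.16 and 0.08 in these 3 comparisons, and that of all genes -0.02, 0.03 and 0.01. In sorted bulk nuclei, a change in the share of nuclei of a type and a change in RNA per nucleus cannot be told apart.

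P2ry1, the ADP receptor that couples to Gq and releases stored calcium, had the largest fold of the 9 between naive ages. Its normalized expression was 49.4, 97.2, 119 and 91 in the 4 naive P4 pups, 447, 453, 481 and 420.1 at P10 and 346, 376, 426 and 424 at P24. Every P10 and P24 library was above every P4 library. The mean rose 5.05-fold, from 89.1 ± 29 (SD, n = 4) to 450.5 ± 25.2, with a log2 change of 2.39 (adjusted p = 1.02e-07, SE 0.22), which placed it 16th of 14985 genes by p. Between P10 and P24 the means were close, with 393 ± 38.9 at P24 and overlapping libraries, and the log2 change was -0.14 (95% interval -0.60 to 0.32, adjusted p = 0.760). Against P4, the P24 level was higher by a log2 change of 2.25 (adjusted p = 6.57e-08, SE 0.22). In the authors' deposited table the adjusted p of P2ry1 for age was 5.38e-26. Leaving out any 1 of the 12 libraries gave log2 changes of 2.15 to 2.53 for P10 against P4. Of 12 oligodendrocyte markers, 10 rose from P4 to P10 and 11 from P10 to P24, and Mbp, myelin basic protein, was 564 ± 290.2, 9192 ± 1883 and 16739.7 ± 1916. The part of oligodendrocyte RNA in the P2ry1 level was not tested.

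Adra2a, the alpha-2A adrenergic receptor that couples to Gi, was highest at P10. Its values were 92.5, 83.4, 120.0 and 103 at P4, 242, 255, 239 and 174 at P10 and 177, 142, 181 and 115 at P24. No P10 library overlapped the P4 libraries, whereas the P24 libraries overlapped both. From P4 to P10 it rose 2.28-fold, from 99.7 ± 15.7 to 228 ± 36.5, with a log2 change of 1.18 (adjusted p = 0.00160, SE 0.24). The P24 mean of 154 ± 31.2 lay between the others. Its log2 change was -0.60 (adjusted p = 0.115, SE 0.24) against P10 and 0.58 (adjusted p = 0.110, SE 0.24) against P4, and neither was called.

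Adra1a, the alpha-1A adrenergic receptor that couples to Gq, was highest at P24. Its values were 26.4, 22.6, 52.6 and 55.8 at P4, 54.4, 50.3, 24.2 and 82.9 at P10 and 67.8, 118, 138 and 125 at P24. All P24 libraries exceeded all P4 libraries, and the P10 libraries overlapped both. From P4 to P24 it rose 2.85-fold, from 39.3 ± 17.3 to 112 ± 30.7, with a log2 change of 1.65 (adjusted p = 0.00444, SE 0.40). Between P10 and P24 the log2 change was 1.24 (adjusted p = 0.0414, SE 0.40). This later step lost its call in 10 of 21 other settings, for example with the sex of the titles, where its log2 change was 1.08, and without the lowest P10 library (male 1), where it was 0.88. The other alpha-1 receptor listed, Adra1b, also Gq-coupled, stood at 114 ± 25.9, 129 ± 59.3 and 103 ± 13.2 and was not called, with a P24 minus P4 log2 change of -0.13 (95% interval -0.78 to 0.51, adjusted p = 0.830). Its P10 libraries ran from 71.6 to 211, around both other groups.

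Adora1, the adenosine A1 receptor, rose between P4 and P24. Its values were 743, 533, 764 and 936 at P4, 789, 918, 725 and 818 at P10 and 1235, 1014, 938 and 1115 at P24. Every P24 library was above every P4 and P10 library, by a narrow margin. The mean went from 744 ± 165 at P4 and 813 ± 80.2 at P10 to 1076 ± 129 at P24, 1.45-fold the P4 mean. The log2 change was 0.58 (adjusted p = 0.0157, SE 0.17) from P4 to P24, and 0.43 (adjusted p = 0.0953, SE 0.17) from P10 to P24, which was not called. Without the lowest P4 library (female 2) the change from P4 was not called, at a log2 of 0.41. The call was also lost without the highest P24 library (female 2), at 0.51. Adora2b, the A2B receptor that couples to Gs, was not called. It stood at 1356 ± 82.7, 1797 ± 661 and 1519.9 ± 263, and its P10 libraries ran from 1119 to 2697.

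The ATP-gated channels and the beta-1 receptor were not called between ages. P2rx7, the P2X7 channel, was 179, 358, 333 and 400.5 at P4, 209, 309, 174 and 145 at P10 and 152, 206, 161 and 206 at P24. The P4 library of female 1 lay among the later ones, and the other 3 P4 libraries were above all later ones. The P24 minus P4 log2 change was -0.75 (adjusted p = 0.0543, SE 0.27). Without that library the adjusted p was 0.00531, and in the authors' deposited table the adjusted p of P2rx7 for age was 0.0373. Microglia are known to carry P2X7 and P2X4. Beside the microglia marker sums above, Cx3cr1, a microglia receptor, was 38.1 ± 14.4, 25.3 ± 15.8 and 52.6 ± 28.6. Csf1r, another microglia marker, took a different course, at 27.4 ± 12.4, 44.9 ± 35.0 and 48.5 ± 14.1. The part of microglia in the P2rx7 and P2rx4 levels was not tested. P2rx4, the P2X4 channel, was 191 ± 46.1, 148 ± 70.5 and 206 ± 37.7, with the P10 library of male 1 at 54.6 below all others. Adrb1, the beta-1 receptor that couples to Gs, was 53.7 ± 17.1, 63.5 ± 12 and 58 ± 31.1, and its P24 libraries alone ran from 31.3 to 103.

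Counted by overlap alone, 2 of 9 receptors had P4 and P10 libraries that did not overlap (P2ry1 and Adra2a), against 14.4% of all genes. Between P10 and P24 it was 1 (Adora1), against 16.9%. Between P4 and P24 it was 3 (P2ry1, Adra1a and Adora1), against 26.7%. Within the authors' own grouping of age-dependent genes, P2ry1, Adra2a and Adra1a appear in the terms of the cluster numbered 1, and none of the other 6 appears in the terms of any of the 4 clusters. The clusters were made from genes with an authors' adjusted p under 0.001. The other 6 were above that threshold, the lowest being Adora1 at 0.0200, so their absence follows from it.

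**Figure D1:**
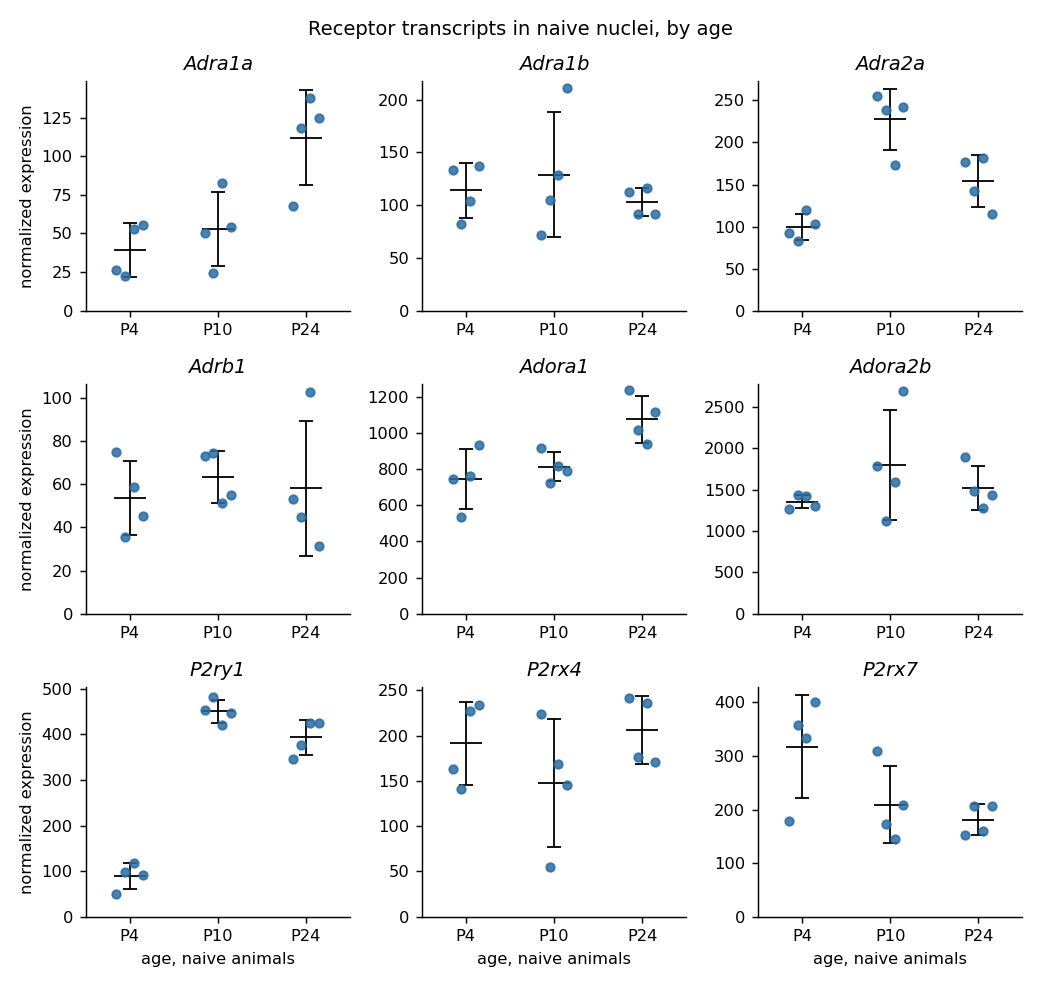
Normalized expression (vertical axes, each from 0) of the 9 receptors in the 12 naive libraries by age, from the age table. Points are single libraries and bars the mean ± SD (n = 4). P2ry1 at P4 lies wholly below P10 and P24, the mean of Adra2a is highest at P10, Adra1a and Adora1 are highest at P24, and the other 5 overlap between ages.

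Genes around the receptors were read from lists chosen with earlier results of these data known. Of 19 genes for ATP release and adenosine turnover, 17 were tested and 11 were called for any difference between ages, beside 24.8% of all genes. From P4 to P10, 4 rose and 1 fell, beside 13.1% of all genes called. Entpd2, an ectoenzyme that converts ATP to ADP, rose from 319 ± 112 to 1114 ± 141 (log2 change 1.85, adjusted p = 3.39e-07, SE 0.19). Slc29a3, an equilibrative nucleoside transporter, rose from 134 ± 36.5 to 325 ± 89 (log2 change 1.28, adjusted p = 3.61e-04, SE 0.22). Enpp2, the secreted enzyme autotaxin, was the gene that fell, from 1059.9 ± 41.7 to 667 ± 275 (log2 change -0.75, adjusted p = 0.00868, SE 0.18). From P10 to P24, 5 rose and 2 fell, beside 13.1%. Enpp2 then rose from 667 ± 275 to 2887 ± 310.4 (log2 change 2.24, adjusted p = 4.75e-08, SE 0.19), and Adk, adenosine kinase, which clears adenosine inside the cell, rose from 436 ± 76 to 1146 ± 335 (log2 change 1.36, adjusted p = 5.06e-05, SE 0.20). Alpl, the tissue-nonspecific alkaline phosphatase, fell from 913 ± 174 to 575 ± 39.7 (log2 change -0.68, adjusted p = 0.00751, SE 0.17), as did Enpp1, an ectonucleotidase, from 158 ± 79.8 to 66.5 ± 22.4 (log2 change -1.06, adjusted p = 0.0318, SE 0.32). Enpp2 is also used as a marker of oligodendrocytes, and their part in its level was not tested. From P4 to P24, 9 of the list rose and 2 fell, beside 18.1% of all genes called, with a median log2 change of 0.59 against 0.01 for all genes. Adk and Slc29a3 led the rise, and Alpl and Enpp1 were the genes that fell.

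**Figure D2:**
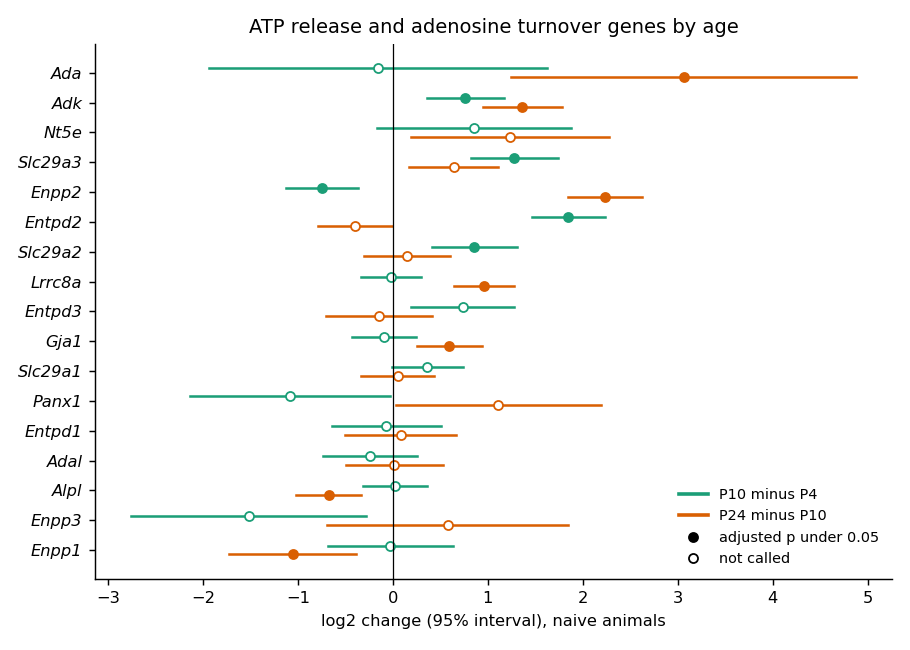
Log2 change with its 95% interval (horizontal axis) of the 17 tested genes for ATP release and adenosine turnover in naive pups, n = 4 a group, for P10 minus P4 and P24 minus P10. Filled points are called at an adjusted p under 0.05. Entpd2 and Slc29a3 rise in the first step, Enpp2 falls and then rises, and Adk rises in both.

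Of 16 genes for Gq and store calcium signalling, the route below P2Y1 and the alpha-1 receptors, all were tested and 4 were called for any difference between ages, beside 24.8% of all genes. From P4 to P10, 3 rose and 1 fell, beside 13.1% of all genes called. Stim1, the calcium sensor of the store, rose from 140.4 ± 31.3 to 276 ± 84 (log2 change 0.94, adjusted p = 0.00872, SE 0.24), and Itpr1, an inositol trisphosphate receptor, rose from 223 ± 33 to 388 ± 152 (log2 change 0.73, adjusted p = 0.0378, SE 0.23). Gnaq, the alpha subunit of Gq, fell from 979 ± 37.5 to 658 ± 154 (log2 change -0.60, adjusted p = 0.0214, SE 0.17). Between P10 and P24 Plcb1, a phospholipase C, rose from 131 ± 12.4 to 340.4 ± 54.1 (log2 change 1.39, adjusted p = 6.89e-05, SE 0.21), and Prkca, protein kinase C alpha, fell from 235 ± 59.5 to 119.9 ± 29.3 (log2 change -0.99, adjusted p = 0.0124, SE 0.26), the 2 of 16 called in this step beside 13.1% of all genes. From P4 to P24, 2 rose (Plcb1 and Stim1) and 0 fell, beside 18.1% of all genes, and the list's median log2 change was 0.01 against 0.01 for all genes.

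Of 27 genes for Gs, Gi and cyclic AMP signalling, 26 were tested and 12 were called for any difference between ages, beside 24.8% of all genes. From P4 to P10, 1 rose and 2 fell, beside 13.1% of all genes called. Pde4b, a cyclic AMP phosphodiesterase, rose from 776 ± 53.7 to 1163 ± 144 (log2 change 0.58, adjusted p = 0.0110, SE 0.15), and the adenylyl cyclases Adcy1 and Adcy7 fell, Adcy1 from 240.4 ± 73.5 to 109 ± 16.5 (log2 change -1.10, adjusted p = 0.00468, SE 0.25). From P10 to P24, 5 rose and 3 fell, beside 13.1%. Gnas, the alpha subunit of Gs, rose from 1041 ± 60.4 to 1752 ± 242 (log2 change 0.75, adjusted p = 9.84e-04, SE 0.15), and Pde4a, a phosphodiesterase, rose from 243 ± 42.1 to 483 ± 102 (log2 change 0.99, adjusted p = 0.00186, SE 0.21). Adcy8, an adenylyl cyclase, fell from 662 ± 76.7 to 342 ± 32.2 (log2 change -0.97, adjusted p = 2.53e-04, SE 0.17), and Prkar2a, a regulatory subunit of protein kinase A, fell from 238 ± 18 to 134 ± 18.6 (log2 change -0.84, adjusted p = 0.0114, SE 0.22). From P4 to P24, 4 rose and 4 fell, beside 18.1% of all genes, and the list's median log2 change was 0.20 against 0.01 for all genes.

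Of 12 receptor kinases, arrestins and RGS proteins, which end receptor signals, all were tested and 4 were called for any difference between ages, beside 24.8% of all genes. From P4 to P10, Arrb1, beta-arrestin 1, rose from 227 ± 52.5 to 401 ± 96.1 (log2 change 0.81, adjusted p = 0.00738, SE 0.20), and Arrb2, beta-arrestin 2, fell from 274 ± 40.0 to 113 ± 70.2 (log2 change -1.52, adjusted p = 0.0110, SE 0.37). Between P10 and P24, Grk3, a receptor kinase, fell from 1636 ± 240.3 to 877 ± 153 (log2 change -0.90, adjusted p = 6.01e-04, SE 0.17), Rgs20 fell from 285 ± 39.9 to 169 ± 49.5 (log2 change -0.81, adjusted p = 0.0166, SE 0.22) and Arrb2 rose from 113 ± 70.2 to 205 ± 70.4 (log2 change 1.18, adjusted p = 0.0484, SE 0.38). The 2 of 12 called in the first step and 3 of 12 in the second stand beside 13.1% and 13.1% of all genes. From P4 to P24, 1 rose and 2 fell, beside 18.1% of all genes, and the list's median log2 change was 0.22 against 0.01 for all genes. Of 7 genes for noradrenaline uptake and breakdown, 6 were tested. Among them Maob, monoamine oxidase B, rose from P4 to P24, from 71.8 ± 17 to 182 ± 48.1 (log2 change 1.34, adjusted p = 0.00251, SE 0.30). Of the 19 other adrenergic and purinergic receptors, 15 were in the age table, and the one called was P2ry12, a microglia receptor for ADP. It rose from P10 to P24, from 34.7 ± 9.33 to 89.8 ± 17.4 (log2 change 1.39, adjusted p = 0.00614, SE 0.33), a step in which 3 of 11 microglia markers rose, P2ry12 among them.

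Across the 12 naive libraries, which share 3 ages, the pattern of log2 expression most like that of P2ry1 belonged to Thrsp (0.97), Slc41a1 (0.97) and Mbp (0.97), with Pearson's r in brackets. For Adra2a it was 4833438C02Rik (0.94), Cluh (0.94) and Lrp1 (0.92), for Adra1a Tmcc3 (0.92), Fam107a (0.91) and Pcdh9 (0.91), and for Adora1 Cyp3a13 (0.91), Rpusd3 (0.90) and Pdgfra (0.90). For P2rx7 it was Adamts3 (0.96), Gm36878 (0.92) and Hoxd4 (0.85), for P2rx4 Rad1 (0.93), Sepsecs (0.91) and En2 (0.91), and for Adora2b Rpp25l (0.90), Tmed5 (0.90) and Abat (0.90). For Adra1b it was Lama3 (0.88), Mapk9 (0.88) and 4930509G22Rik (0.86), and for Adrb1 Azin2 (0.87), Vmn1r132 (0.84) and Timm44 (0.81). Mbp, among those nearest to P2ry1, is the oligodendrocyte marker given above, and Pdgfra, among those nearest to Adora1, marks oligodendrocyte precursors and stood at 284 ± 108, 361 ± 25.1 and 722 ± 115 at the 3 ages. Between members, P2ry1 and Adra2a had r = 0.82 and the neighbours P2rx4 and P2rx7 r = 0.23. These values only describe likeness over these libraries.

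After incision, none of the 9 receptors was called at any age. Their incised and naive libraries overlapped for all 9 at P4, P10 and P24. In limma, 0 of 9 had an unadjusted p under 0.05 at each age, and the adjusted p ran from 0.713 to 0.956 at P4, from 0.968 to 0.997 at P10 and from 0.809 to 0.993 at P24. In the authors' deposited table the adjusted p of the 9 ran from 0.797 to 0.964 at P4, was 0.998 for all 9 at P10, and ran from 0.865 to 0.992 at P24. Few genes were called at all: 0.0281% of 14243 at P4, 0% of 13699 at P10 and 0% of 15246 at P24. At an unadjusted p under 0.05 these tables held 1141, 638 and 1237 genes. Genes whose groups did not overlap made up 5.90%, 2.48% and 4.96% of the tables.

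A missed threshold does not show that a receptor is unaffected, and the intervals say what these 4 against 4 libraries leave possible. At P4, 6 of 9 log2 estimates were positive. The interval of Adora1 was the narrowest, with a log2 change of -0.23 (95% interval -0.67 to 0.22, adjusted p = 0.811), and that of Adra1a the widest, at 0.50 (95% interval -0.67 to 1.68, adjusted p = 0.843). At P10 the narrowest was Adora2b, at -0.09 (95% interval -0.44 to 0.26, adjusted p = 0.984), and the widest again Adra1a. At P24 the intervals were shorter, from Adora1 at -0.14 (95% interval -0.40 to 0.12, adjusted p = 0.809) to Adrb1 at 0.10 (95% interval -0.50 to 0.70, adjusted p = 0.951). The Adrb1 means at P24 were 67.5 ± 36.8 naive and 58.8 ± 14.9 incised, opposite in direction to the estimate. That estimate came from the fit with a sex term, and by the sheet 3 of 4 naive and 2 of 4 incised pups were female. It changed sign in 6 of 16 alternatives. All 27 intervals included 0.

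Among the purine receptors, P2ry1 had the P10 estimate nearest to a call among the 9. Its naive P10 libraries were 388, 400.0, 425 and 367 and its incised ones 419.7, 278, 179.6 and 330.0. Of the incised libraries 3 were below all naive ones and the highest was among them. The means were 395 ± 24.2 and 302 ± 100.3 (SD, n = 4 each), and the log2 change was -0.45 (95% interval -0.96 to 0.06, adjusted p = 0.968), with an unadjusted p of 0.0812. At P4 the incised libraries, at 191, 28.6, 117 and 80.1, lay on both sides of the naive ones, at 41.3, 80.8, 98.6 and 75.9. At P24 the groups were 391 to 488 (naive) and 383 to 429.9 (incised), which overlapped. P2rx4 had log2 changes of -0.53 (95% interval -1.24 to 0.17, adjusted p = 0.713) at P4, 0.51 (95% interval -0.25 to 1.26, adjusted p = 0.969) at P10 and 0.05 (95% interval -0.31 to 0.41, adjusted p = 0.957) at P24. P2rx7 had -0.31 (95% interval -1.09 to 0.48, adjusted p = 0.856), -0.26 (95% interval -0.99 to 0.47, adjusted p = 0.983) and 0.20 (95% interval -0.24 to 0.64, adjusted p = 0.848). Its naive and incised libraries spanned 129 to 289.8 and 116 to 306 at P4, and 178 to 240.1 and 135 to 322 at P24.

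For the adenosine receptors, Adora1 was 615 ± 137 naive and 560.1 ± 112 incised at P4, 676 ± 67.9 and 652 ± 97.1 at P10, and 1251 ± 145 and 1119 ± 71.2 at P24. Its estimate was negative at each age, and every interval included 0. Adora2b was 1143 ± 66.7 and 1469 ± 460.2 at P4, 1558 ± 561 and 1419 ± 295 at P10, and 1745 ± 297 and 1582 ± 169.9 at P24. At P4 its 4 naive libraries lay within 1071 to 1205, and the incised ones were 1035, 1956, 1119 and 1766, some above that range and some within or below it.

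Among the adrenergic receptors, Adra1a at P4 rested on 1 library. Its naive libraries were 22.2, 18.9, 44 and 46.9, and the incised ones 27.3, 203, 42.2 and 35.7. The incised male 1 stood far above all others, and the remaining incised libraries overlapped the naive ones. The P4 log2 change was 0.50 (95% interval -0.67 to 1.68, adjusted p = 0.843), and 0.03 without that library. At P10 the naive libraries were 45.8, 43.1, 20.8 and 70.4 and the incised ones 62.7, 47.5, 140.4 and 77.8, with a log2 change of 0.86 (95% interval -0.12 to 1.83, adjusted p = 0.968). At P24 the means were 129 ± 35.7 and 123 ± 23.6. Adra1b was 95.8 ± 22 and 129 ± 41.6 at P4, 111 ± 50.1 and 109 ± 2.99 at P10, and 119.5 ± 16.1 and 127 ± 15.8 at P24. Its 4 incised P10 libraries lay within 106 to 112, inside the naive range of 62.1 to 179.8. Adra2a was 83.5 ± 13 and 101 ± 42.6 at P4, 196 ± 32 and 209 ± 24.7 at P10, and 179 ± 37.5 and 183 ± 41.6 at P24. Adrb1 was 47.2, 63.9, 65.2 and 44.6 in naive and 113, 53.9, 95 and 78 in incised pups at P10, with a log2 change of 0.58 (95% interval -0.27 to 1.43, adjusted p = 0.969), and 0.55 (95% interval -0.42 to 1.52, adjusted p = 0.786) at P4.

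**Figure D3:**
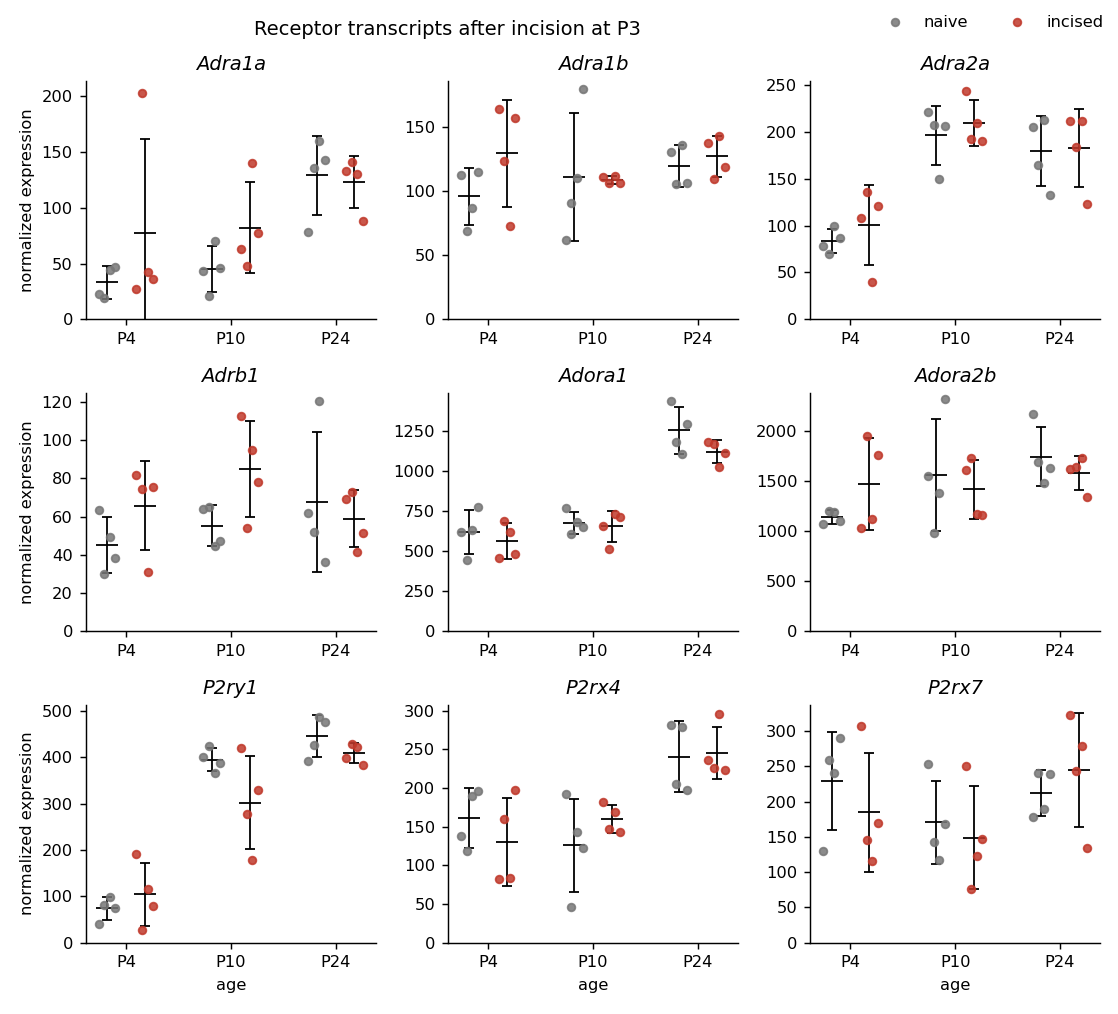
Normalized expression (vertical axes, each from 0) of the 9 receptors in naive (grey) and incised (red) libraries at each age, from the 3 incision tables, which were normalized separately. Points are single libraries and bars the mean ± SD (n = 4, cut at 0). The groups overlap in every panel and at every age, and 1 incised P4 library stands far above the rest for Adra1a.

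The effect of incision was compared between ages in 1 model over the 3 tables. None of the 9 was called for any difference between ages, against 0.167% of 13200 genes, with adjusted p from 0.734 to 0.995 and a lowest unadjusted p of 0.186 (P2rx4), so 0 of 9 had an unadjusted p under 0.05. No gene of the lists for receptors, ATP turnover, G protein signalling, receptor kinases or noradrenaline breakdown was called at any of the 3 ages. At P24 the summed oligodendrocyte markers were 94773 to 108664 in naive and 71964 to 85716 in incised libraries, which did not overlap, and none of the 12 markers was called. None of their 12 log2 estimates was positive, and 10 had an unadjusted p under 0.05 in limma, beside 1237 of 15246 genes. The sums of 9 precursor markers were 5364 to 7171 and 3916 to 5099, and those of 11 microglia markers 1182 to 1745 and 939.8 to 1471. Of the precursor estimates none was positive, and 5 had an unadjusted p under 0.05 in limma. Of the microglia estimates 3 were positive, and 3 had an unadjusted p under 0.05. At P4 the precursor sums were 1088 to 1369 and 1552 to 1951, and those of 7 mural markers were 507 to 757 and 927 to 1232. Naive and incised sums did not overlap for either list at P4, and none of these markers was called. The part of these cells in the receptor estimates was not tested.

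**Figure D4:**
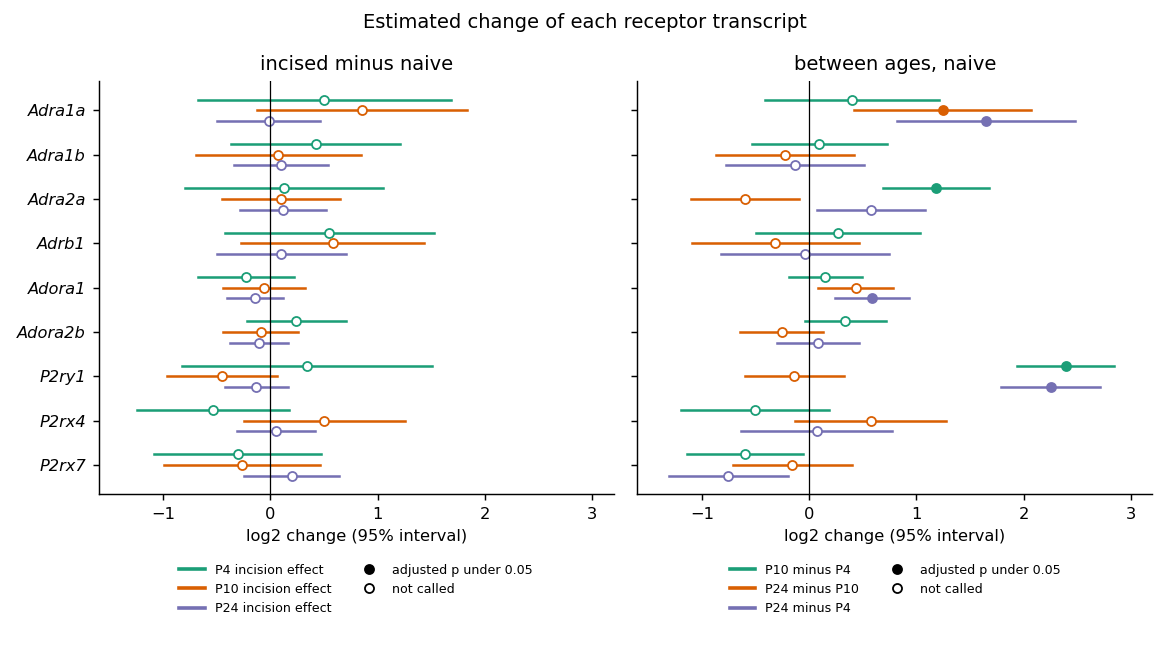
Log2 change with its 95% interval (horizontal axes) of each receptor, left for incised minus naive at P4, P10 and P24 and right between ages in naive pups, n = 4 a group. Filled points are called at an adjusted p under 0.05. All 27 intervals on the left include 0, and the filled points on the right are P2ry1, Adra2a, Adra1a and Adora1.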

How the data were processed

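Per the submitters' processing notes, the authors used STAR, Salmon, DESeq2 and mm10 (versions not given) on nuclear RNA of 24 libraries. The deposited signal is the authors' normalized expression per gene and library, in 3 tables of incised against naive pups and 1 of naive ages, every one with its own normalization. The deposited tables also hold the authors' log2 fold changes and p-values, and terms for clusters of age-dependent genes, of which only the listed genes were used. Per the deposited description, genes needed 10 counts or more in 4 or more samples, and after testing, in at least 1 group, normalized expression over 20 with a coefficient of variation below 0.65. Of 81 combinations of receptor, group and table, 79 met the last condition. Each naive group counts once in its incision table and once in the age table. Values within 0.1 of a whole multiple of a library's lowest value made up 17.6% to 30.0%, so read counts were not recovered.

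Here limma 3.58.1 (R 4.3.3, statmod 1.5.0, trend and robust settings) was fitted to log2(value + 1), a scale that understates changes of low genes, with terms for group and sex. Tests were 2-sided on genes whose mean reached 10, with Benjamini-Hochberg adjustment over all genes of a table. The fit was tested on simulated data. Differences of incision effects between ages came from 1 model with age as a term. The members and lists were chosen with earlier results of these data known. The genes named are every member, other receptors that passed, the 2 passing genes of lowest p in each direction of each other list, the 3 genes most correlated with each member over the naive libraries, and a fixed set of cell type markers. Alternatives were another pseudocount, filter, normalization, sex term or grouping, a replicate block, and leaving out each library. Some results of the gene lists are not reported here.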

Additional observations from a re-analysis of the deposited data

Results flagged for a closer look

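Among 81 combinations of receptor, group and table, 2 held a library far from the other 3 of its group by Dixon's test. Chance flags about 1 in 20 groups. The naive groups are counted in both the incision and the age tables, so the 81 are not independent. Adra1a in incised male 1 at P4 (library MB6) stood at 203, against 27.3 to 42.2 in the other incised libraries. Adrb1 in incised male 2 at P4 (library MB7) stood at 30.8, against 74.6 to 81.6 in the others.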

How the results depend on the processing

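Over 16 to 33 alternatives per comparison, no receptor was called after incision or for a difference of the incision effect between ages, and none of 1638 such values crossed the threshold. Of 756 receptor values between ages, 18 lost and 12 gained a call, and no called change reversed. P2ry1 and Adra2a (P10 against P4), P2ry1 and Adra1a (P24 against P4) kept their calls in all 21 alternatives. Between ages, the titles' groups, leaving out MB12 and MB16, and leaving out MB12 alone are the same fit, counted separately here. The single receptor call from P10 to P24, Adra1a, was lost (0 called) with no trend or robust settings, quantile normalization, no sex term or the sex of the titles, and the count ran from 0 to 1 without 1 library. The P24 minus P4 call of Adora1 was lost in 3 alternatives, and P2rx7 gained one there in 7. Over all genes, the 4 calls at P4 became 9 with a mean of at least 50, 0 with no trend or robust settings, 15 with quantile normalization, 12 with no sex term, and 0 to 8 without 1 library. The 0 calls at P10 and at P24 became 0 to 1 and 0 to 5 without 1 library. From P10 to P24, 1231 to 2069 genes were called without 1 library, against 1963. The 22 genes whose incision effect differed between ages became 4 with no trend or robust settings, 1 with the sex of the titles, 12 with the titles' groups, 8 without MB12 and MB16, and 0 to 50 without 1 library. The cause was not tested. With the replicate number as a block, 24 genes were called at P10 and 16 at P24, and 0 receptors. By the names in the titles, only female 2 and male 1 occur in both groups at P10, and female 2, male 1 and male 2 at P24. By the sheet, the incised male 1 at P10 and the naive male 1 at P24 were female. The effect in this fit rests on the libraries whose name occurs in both groups, and little is left to estimate the spread. Libraries with the same number did not deviate together (correlations of -0.12 to 0.03). Deviations from a mean of 4 libraries cannot exclude a small shared effect, so whether the numbers pair the pups is not settled. Depth is unknown, and 4 pups a group limit the precision.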
